A study of Rattus norvegicus with 12 samples.

Results

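The genes described here encode the proteins of the cytosolic ribosome, measured in the left ventricle of rat hearts. Probe sets were taken as members when the platform annotation gave a single gene symbol made of Rpl, Rps or Rplp and a number, with an optional letter, leaving out the Rps6k kinases and the mitochondrial ribosomal proteins. This gave 56 probe sets of 38 genes, among 8740 probe sets and 4736 singly named genes on the array. Of these, 55 probe sets of 37 genes were bright enough to be tested. The single probe set of Rpl5 was not, with a mean intensity of 347 ± 22.1 in exercised and 287 ± 44.5 in sedentary samples (SD, n = 6 each). A further 39 probe sets name a ribosomal protein together with other genes and were not used. Total RNA came from 6 exercised samples, taken after 7 weeks of treadmill running, and 6 sedentary samples, with 1 single-channel array per sample. The labels give no strain, age, sex, running schedule or batch. Whether samples came from different animals is not stated either, and the p-values reflect only how these samples vary, which may be technical.

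The cytosolic ribosome has a small subunit, which reads the messenger RNA, and a large subunit, which joins amino acids and lets the new chain out through a tunnel. Its proteins are made in matched amounts and assembled with ribosomal RNA in the nucleolus. Most of their messenger RNAs begin with a tract of pyrimidines (C or T in the DNA) through which growth signals acting on the kinase mTOR regulate their translation. Growth of the heart requires net protein synthesis, and the left ventricle under treadmill running is the setting of the study, whose title names hypertrophy of the heart brought on by exercise. The arrays measure messenger RNA and say nothing of ribosome number or of translation.

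The start of the gene, where this pyrimidine tract lies, is shown for the members on which the results turn. Each sequence runs from 60 bases before to 20 bases after the RefSeq start in build GRCr8, 5′ to 3′ on the strand of the gene. Capitals mark the longest unbroken run of at least 8 C or T that lies within or reaches into the 20 bases on either side of the start, as far as it falls in the window. The first 6 genes and Rpl3l, the striated muscle paralogue of Rpl3, have such a run, while Rpl3 and Rps27l do not. In Rps16 and Rpl3l the run begins inside the annotated transcript, 15 and 10 bases from the start. In Rpl23 it lies wholly before the annotated start, in the last 10 bases.
Rpl27a: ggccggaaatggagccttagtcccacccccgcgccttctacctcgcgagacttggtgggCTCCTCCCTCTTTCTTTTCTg
Rpl31: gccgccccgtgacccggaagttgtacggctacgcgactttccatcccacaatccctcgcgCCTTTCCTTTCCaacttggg
Rpl23: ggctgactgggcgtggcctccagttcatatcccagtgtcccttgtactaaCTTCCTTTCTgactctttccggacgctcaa
Rpl35: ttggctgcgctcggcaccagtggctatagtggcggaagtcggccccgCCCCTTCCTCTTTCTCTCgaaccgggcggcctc
Rps16: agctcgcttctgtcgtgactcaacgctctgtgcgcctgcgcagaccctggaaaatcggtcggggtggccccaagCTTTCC
Rplp0: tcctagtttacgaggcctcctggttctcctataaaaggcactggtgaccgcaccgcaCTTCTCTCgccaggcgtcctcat
Rpl3: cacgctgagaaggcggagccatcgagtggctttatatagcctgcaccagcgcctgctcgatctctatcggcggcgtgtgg
Rps27l: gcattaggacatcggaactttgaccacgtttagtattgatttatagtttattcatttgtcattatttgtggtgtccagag
Rpl3l: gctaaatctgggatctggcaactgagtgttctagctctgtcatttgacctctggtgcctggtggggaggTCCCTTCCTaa
The windows are chr1:172974513-172974592 for Rpl27a (plus strand), chr9:49143051-49143130 for Rpl31 (plus strand), chr10:83272165-83272244 for Rpl23 (minus strand), chr3:43165902-43165981 for Rpl35 (minus strand), chr1:92770598-92770677 for Rps16 (plus strand), chr12:46718371-46718450 for Rplp0 (minus strand), chr7:113507971-113508050 for Rpl3 (minus strand), chr8:76443598-76443677 for Rps27l (plus strand) and chr10:14258386-14258465 for Rpl3l (plus strand). Of the 34 member genes found in the RefSeq promoter table, 25 (73.5%) had such a run, against 20.97% of all 33469 promoters in the table. Runs that end before the annotated start, as in Rpl23, Rps6 and Rpl7a, are counted here. The annotated starts need not be the starts used in the heart. In the whole window of the table, from 250 bases before to 50 after the start, on either strand, GGGCGG, the core of an Sp1 site, was in 61.8% of member promoters and 33.1% of all. CCGGAAG, the core of an ETS factor site, was in 26.5% against 8.75%. AAGATGGC, a YY1-type element that holds a start codon, was in 11.8% against 3.17%, and TATAAA was in 11.8% (Rpl3, Rps27l, Rplp0 and Rpl39) against 14.2%. These are matches of letters and do not show binding. Among tested genes, the median log2 difference between the groups was 0.15 over 24 genes with the pyrimidine run and 0.19 over 9 without it, on the brightest probe set of each.

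A difference is the exercised mean less the sedentary mean of log2(intensity + 363). The added constant makes the difference of a dim probe set look smaller than it is. The 12 arrays were close in overall brightness, with median intensities of 840 to 875. Sedentary 17 stood apart over all probe sets, and sedentary 16 on markers of the atrium given with the other marker genes. A tested probe set typically lay 0.15 log2 from its own 12-array mean on sedentary 17, against 0.048 to 0.073 on the others. Results that turn on sedentary 17 are given with and without it. The summed intensity of 8 tested cardiomyocyte marker genes, among them Myh6, Tnnt2 and Myl2, was 526944 to 565407 in exercised and 495667 to 575032 in sedentary samples, so heart muscle transcripts were abundant in both groups.

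Ribosomal protein probe sets were slightly higher in exercised samples, but no single member passed the test. Of 55 tested probe sets 51 were higher and 4 lower by sign, where 51.4% of all 6555 tested probe sets were higher. Their median log2 difference was 0.16, a fold of 1.11, and the values of individual members ran from -0.14 to 0.35. The median of all tested probe sets was 0.0027. No member reached an adjusted p of 0.05 (limma with Benjamini-Hochberg adjustment over all tested probe sets), where 0.32% of all probe sets did. At an unadjusted p under 0.05 there were 31 members, each of them higher, against 9.26% of all tested probe sets called higher at that level. An exact rank-sum test gave 30 members at that level, where 15.1% of all tested probe sets were in either direction, and none after adjustment. Groups of 6 that do not overlap give the smallest p that test can return. Whether that p passes the adjustment depends on how many probe sets reach it. Even Rpl27a, whose groups did not overlap, had a rank-sum adjusted p of 0.104. The 6 exercised values lay wholly above the 6 sedentary values for 5 members, where the groups were apart in 2.07% of all tested probe sets and apart with exercised higher in 1.5%. The standard errors of the members ran from 0.049 to 0.14, with a median of 0.069, so the typical difference was a little over 2 standard errors.

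Members are bright, and bright probe sets as a whole were also slightly higher in exercised samples. The brightest 10% of the tested probe sets that are not members, 650 in all, had a median difference of 0.028, with 60.9% higher by sign. In that set 15.8% were higher at an unadjusted p under 0.05. Methods of scaling that allow for brightness made the members' difference smaller without turning it. Their median was 0.11 after quantile normalization or cyclic loess and 0.094 when each array was shifted to the median of that bright set, with 47 of 55 members higher under each. That shift put the median difference of all tested probe sets at -0.059 and moved that of the bright set from 0.028 to -0.034. It thus took away more than the bright set's own difference. After it, 19 members were at an unadjusted p under 0.05, of which 18 were higher. Over all tested probe sets 24.7% were at that level in either direction under the shift.

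**Figure D1:**
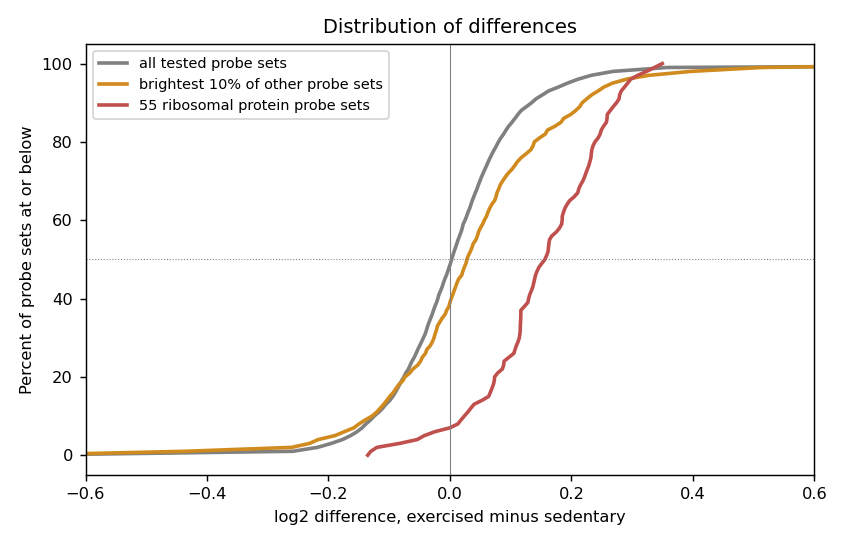
Cumulative distributions of the log2 difference, exercised minus sedentary, on the horizontal axis against the percent of probe sets at or below it. The curve of the 55 ribosomal protein probe sets crosses 50% at 0.16, to the right of the brightest 10% of other probe sets at 0.028 and of all tested probe sets at 0.0027.

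Members tended to lie to the same side of their means on an array, and the arrays of a group differed among themselves. After centring each probe set on its 12-array mean, the median over the 55 members was 0.033 on exercised 1, 0.029 on exercised 4, 0.12 on exercised 5, 0.049 on exercised 7, 0.15 on exercised 8 and 0.067 on exercised 9. It was -0.074 on sedentary 13, -0.025 on sedentary 16, 0.0039 on sedentary 17, -0.024 on sedentary 21, -0.25 on sedentary 23 and -0.10 on sedentary 24. The groups did not overlap in this median, though sedentary 17 came within 0.03 of the lowest exercised array. The group means were 0.076 ± 0.051 and -0.079 ± 0.093 (SD, n = 6 each). Sedentary 23 was the lowest array for 35 of the 55 members, and only 3 members lay above their own mean there. Exercised 8 was the highest array for 23 members and exercised 5 for 11. The bright probe sets that are not members had medians of 0.058 on exercised 8 and -0.035 on sedentary 23, so the same arrays were at the ends of that set, with smaller deviations. Otherwise the order differed. Sedentary 17 was nearly as low in that set, at -0.034, though highest of the sedentary arrays for the members. Exercised 5 was at 0.015 there and exercised 9 at 0.051. The part of brightness in the members' difference was not tested beyond the scalings above. Without sedentary 23 the members' median difference was 0.13, with 49 higher and 29 at an unadjusted p under 0.05. Of all tested probe sets 12.8% were at that level in either direction. Without sedentary 17 the members' median was 0.17, with 53 higher and 32 at that level, where 16.9% of all tested probe sets were.

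**Figure D2:**
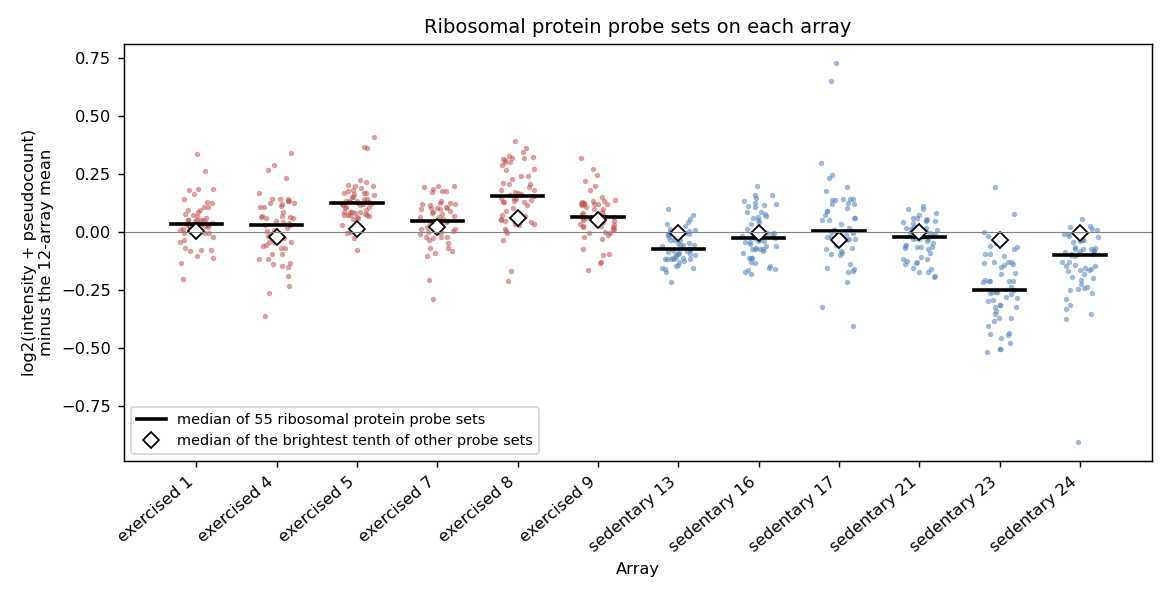
Each point is 1 of the 55 tested ribosomal protein probe sets on 1 array, as log2(intensity + pseudocount) minus its mean over the 12 arrays; bars are medians of the members and diamonds medians of the brightest 10% of other probe sets. The member medians of the 6 exercised arrays lie between 0.029 and 0.15 and those of the sedentary arrays between -0.25 and 0.0039, with sedentary 23 lowest.

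The proteins of both subunits were mostly higher by sign, and no test compared the subunits. The 16 tested probe sets of 11 small subunit genes had a median of 0.16, with 14 higher, and the 38 probe sets of 25 large subunit genes had a median of 0.15, with 36 higher. At an unadjusted p under 0.05 there were 9 and 22 of them, each higher. The centred medians of the small and large subunit were -0.26 and -0.23 on sedentary 23 and 0.14 and 0.17 on exercised 8. They were of unlike sign on exercised 4 (-0.0024 and 0.030) and sedentary 17 (0.042 and -0.014), so that sedentary 17 lay above exercised 4 for the small subunit. The 28 brighter members had a median of 0.16, with 28 higher, and the 27 dimmer ones 0.14, with 23 higher.

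**Figure D3:**
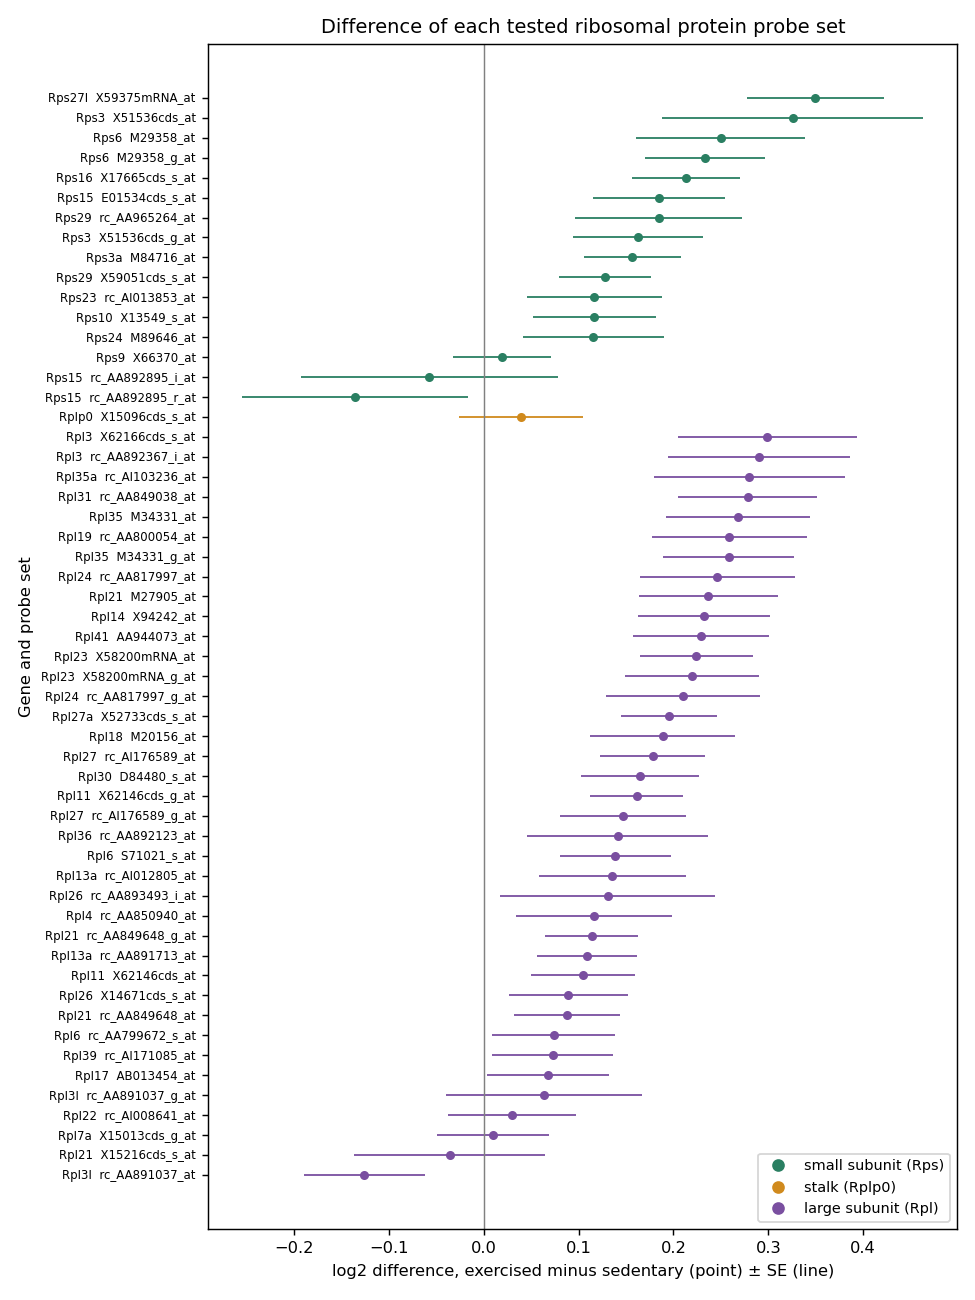
The log2 difference (point) and its standard error (line) of the 55 tested probe sets, ordered within the small subunit, the stalk and the large subunit. Most points lie between 0.1 and 0.3, and the 4 below 0 belong to Rps15, Rpl21 and Rpl3l.

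In the small subunit the leading member was Rps27l, a near-identical paralogue of Rps27. Its intensity ran from 1588 through a median of 1829 to 1972 in sedentary and from 1905 through 2458 to 2672 in exercised samples. Exercised 1 was the lowest exercised sample and the only overlap, since the other 5 lay above every sedentary sample. The difference was 0.35 ± 0.073 (SE, n = 6, limma adjusted p = 0.0584), the smallest adjusted p of any member. Without exercised 1 it was 0.41 (adjusted p = 0.0179), and over 27 alternatives the adjusted p ran from 0.0179 to 0.215. Messages of Rps27 itself can share this signal.

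Rps16 ran from 10361 through 11956 to 13277 in sedentary and from 13066 through 13933 to 14584 in exercised samples. The 2 groups met only at sedentary 17, the highest sedentary array, and the difference was 0.21 ± 0.057 (limma adjusted p = 0.1001, and 0.0662 without sedentary 17). Rps6, the protein that S6 kinases phosphorylate when mTOR is active, ran on its brighter probe set from 11358 through 13461 to 14666 in sedentary and from 14902 through 15676 to 16115 in exercised samples. Its groups did not overlap, and the difference was 0.23 ± 0.063 (limma adjusted p = 0.101). The dimmer Rps6 probe set gave 0.25 ± 0.089 (limma adjusted p = 0.182).

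Rps3, which lies at the entry of the messenger RNA channel, had the widest error. Its dimmer probe set ran from 3721 through 6934 to 7946 in sedentary and from 7457 through 8275 to 8885 in exercised samples. The value of 3721 was that of sedentary 24, far below the other sedentary samples, which lay between 6804 and 7946. The difference was 0.33 ± 0.14 (limma adjusted p = 0.255) and 0.18 without sedentary 24. The brighter Rps3 probe set gave 0.16 ± 0.068. Further small subunit members were Rps29 with 0.13 and 0.18 on its 2 probe sets, Rps3a with 0.16, and Rps23, a protein of the decoding centre, and Rps10 with 0.12 each. Rps24 gave 0.12 and Rps9 0.019, with limma adjusted p of 0.451 and 0.866.

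In the large subunit the members of smallest p were Rpl27a, Rpl31, Rpl23 and Rpl35. Rpl27a ran from 16320 through 17655 to 18988 in sedentary and from 19155 through 20272 to 22180 in exercised samples. Its groups did not overlap, with a difference of 0.20 ± 0.050 (limma adjusted p = 0.0920). Rpl31, which lies beside the exit of the peptide tunnel, ran from 10173 through 11853 to 12590 and from 12142 through 14114 to 16112. Exercised 7 alone fell inside the sedentary range, and the difference was 0.28 ± 0.073 (limma adjusted p = 0.0934). Rpl23, at the face where the subunits meet, ran from 7870 through 8507 to 9469 and from 9450 through 10039 to 11336. The ranges just touched, with a difference of 0.22 ± 0.059 (limma adjusted p = 0.0934). Its other probe set gave 0.22.

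Rpl35, a tunnel-exit protein as well, ran on its brighter probe set from 13585 through 16280 to 19350 in sedentary and from 18360 through 19382 to 20874 in exercised samples. Its highest sedentary value was that of sedentary 17. The difference was 0.26 ± 0.069 (limma adjusted p = 0.0981), and without sedentary 17 it was 0.31 (adjusted p = 0.0403, in a range of 0.0193 to 0.271 over 27 alternatives). Its dimmer probe set gave 0.27, with no overlap of the groups. These probe sets of Rpl27a, Rpl31, Rpl23 and Rpl35, with that of Rps27l, were the 5 members under an adjusted p of 0.10, where 2.2% of all tested probe sets were.

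**Figure D4:**
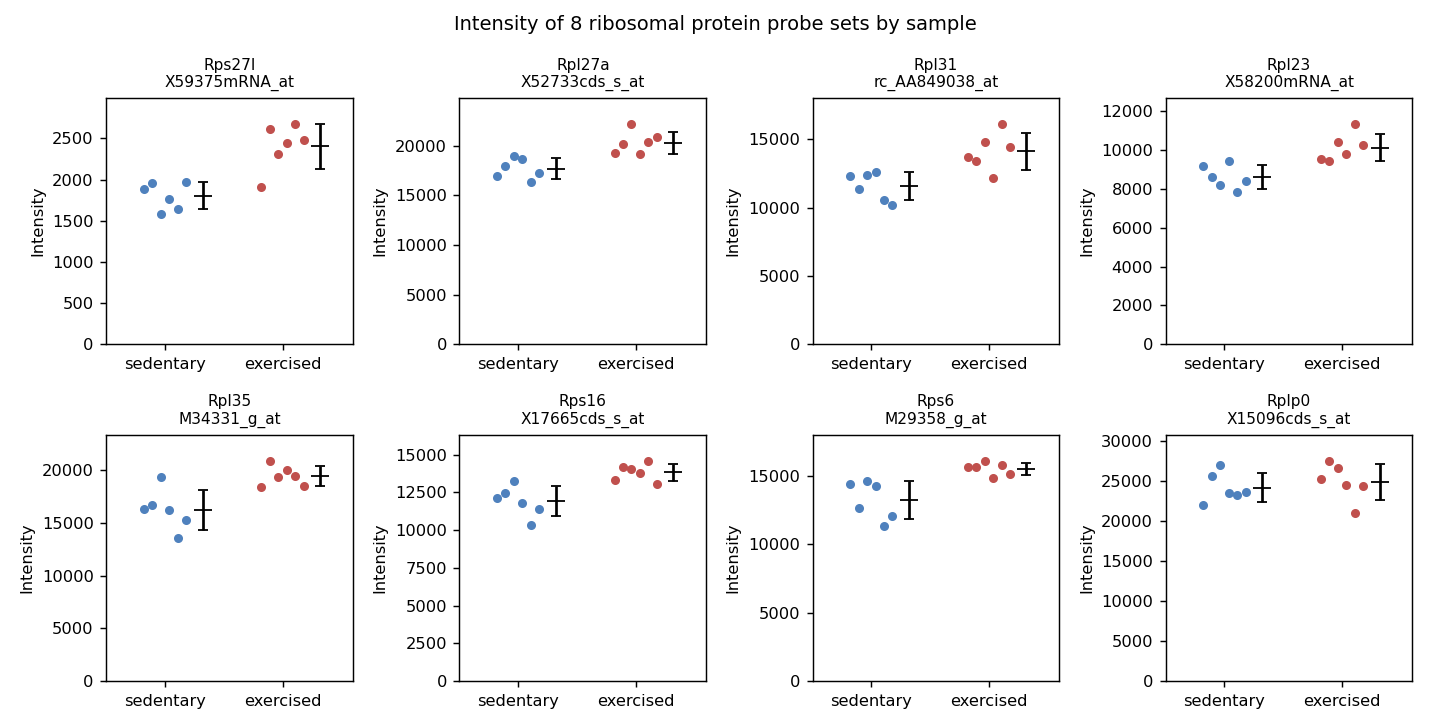
Intensity of 8 probe sets in the 6 sedentary and 6 exercised samples, each point 1 sample, with the group mean and SD beside the points; axes start at 0. Groups do not overlap for Rpl27a and Rps6, overlap in part for Rps27l, Rpl31, Rpl23, Rpl35 and Rps16, and cover the same range for Rplp0.

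The other large subunit genes spread below these. Rpl35a gave 0.28, Rpl19 0.26, Rpl24, which reaches across to the small subunit, 0.25 and 0.21, Rpl14 0.23, and Rpl41, a very short peptide, 0.23. Rpl18 gave 0.19, Rpl27 0.18 and 0.15, and Rpl30 0.16. Rpl11, a partner of the 5S RNA that can also bind the p53 regulator Mdm2, gave 0.16 on a probe set without overlap and 0.10 on its other. Rpl36 and Rpl6 gave 0.14, with 0.074 on the other Rpl6 probe set, and Rpl13a 0.14 and 0.11. Rpl26 gave 0.13 and 0.089, Rpl4, which lines the tunnel, 0.12, Rpl39, a small protein of the tunnel wall, 0.073, and Rpl17 0.068. Lowest among them were Rpl22 with 0.030 and Rpl7a with 0.010 (limma adjusted p = 0.842 and 0.945).

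Rplp0, the base of the stalk that recruits elongation factors and a common reference gene, had no clear difference. Its intensity ran from 22012 through 23563 to 26967 in sedentary and from 21030 through 24825 to 27479 in exercised samples, so the ranges lay over each other. The difference was 0.039 ± 0.065 (limma adjusted p = 0.775). It was -0.0022 under cyclic loess and -0.023 after the shift to bright probe sets.

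Rpl3 and its muscle paralogue Rpl3l were among the members of largest and of lowest difference. Rpl3 lies near the peptidyl transferase centre, and Rpl3l can take its place in ribosomes of heart and skeletal muscle. The brighter Rpl3 probe set ran from 3329 through 3904 to 4248 in sedentary and from 3691 through 4885 to 5847 in exercised samples, with exercised 7 lowest in its group. The difference was 0.30 ± 0.094 (limma adjusted p = 0.149), and the dimmer probe set gave 0.29 ± 0.096. The brighter Rpl3l probe set ran from 7550 through 8234 to 9081 in sedentary and from 6789 through 7590 to 8271 in exercised samples. Its difference was -0.13 ± 0.064 (limma adjusted p = 0.348), and 5 of 6 exercised samples were below the sedentary mean. The dimmer Rpl3l probe set, at 3573 to 4417 in sedentary and 3008 to 5327 in exercised samples, gave 0.063 ± 0.10.

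The ratio of Rpl3 to Rpl3l is given as a description with no test, since these probe sets were singled out by their differences. With the brighter Rpl3l probe set, the log2 ratio was higher in exercised samples by 0.42 ± 0.13 (SE) on each Rpl3 probe set, and all 6 exercised samples lay above the sedentary mean. With the dimmer Rpl3l probe set it was higher by 0.24 ± 0.15 on the brighter and 0.23 ± 0.13 on the dimmer Rpl3 probe set, with 3 and 4 exercised samples above the sedentary mean. The size of the ratio thus depended on which Rpl3l probe set was read, and transcripts of the paralogues can share signal.

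**Figure D5:**
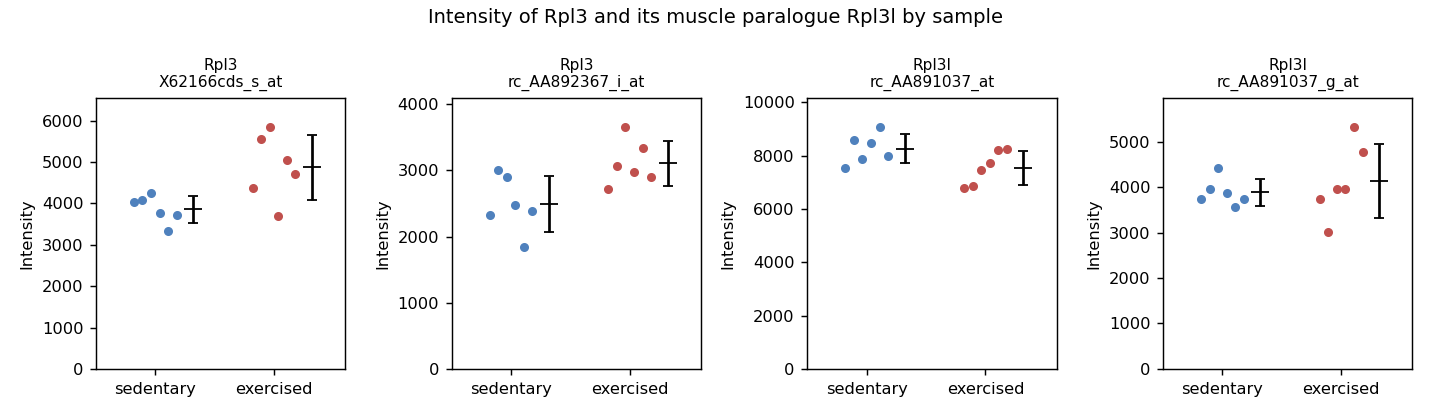
Intensity of both probe sets of Rpl3 and of Rpl3l in the 6 sedentary and 6 exercised samples, with group mean and SD; axes start at 0. Rpl3 lies higher in exercised samples on both probe sets (log2 difference 0.30 and 0.29), while those of Rpl3l give -0.13 and 0.063.

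Where a gene had several probe sets, most of them were of like sign. This was so for 12 of the 15 genes with more than 1 tested probe set. Rpl3l was an exception, as were Rps15 and Rpl21. With 51 of all 55 members higher, like sign is the usual outcome and adds little. Several pairs, such as those of Rps6 and Rpl35, are also named after 1 sequence and are not independent readings. Rps15 gave 0.18 ± 0.069 on its brightest probe set, which ran from 9665 through 10813 to 13148 in sedentary and from 11934 through 12560 to 13672 in exercised samples. Its other probe sets, named by the array maker with the suffixes i and r for sets with missing or relaxed probes, gave -0.057 and -0.14. On both, sedentary 17 was far above the other sedentary samples, at 4727 against 2074 to 2887 and at 8385 against 4109 to 5592. Without it they gave 0.083 and -0.018. Rpl21 gave 0.24, 0.11 and 0.088 on 3 probe sets and -0.036 on the other, which has the suffix s that marks probes shared by several transcripts. The probe sets of Rpl27a, Rps16 and Rplp0, the brighter one of Rpl3 and the brightest of Rps15 carry the suffix s too. The dimmer Rpl3 probe set has the suffix i. Over the 12 members with the suffix s the median was 0.13, and over the 29 with no suffix letter it was 0.18.

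Among like-named genes that the selection left out, those tested had wide errors or almost no difference. Rps4x-ps9 gave 0.21 ± 0.16, Rpl19l4 0.11 ± 0.15 and Rpl36al1 -0.0015 ± 0.077. The 3 probe sets of ribosomal proteins with other names gave positive differences. Rpsa, the laminin receptor homologue of the small subunit, gave 0.24 ± 0.053 and 0.21 ± 0.072 on its 2 probe sets (limma adjusted p = 0.0614 and 0.175), and Rack1, a signalling scaffold of the small subunit, gave 0.13 ± 0.059 (0.276).

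Genes that serve the ribosome are described by their counts alone. Of 42 probe sets of 25 genes with symbols beginning Eef or Eif, 35 gave positive and 7 negative differences, and the median was 0.083. Besides translation factors, these include proteins that restrain translation, the kinases Eif2ak1, Eif2ak2, Eif2ak3 and Eef2k and the binding protein Eif4ebp1. Eif4e and Eif4ebp1 are counted again in the list around mTOR below. None passed an adjusted p of 0.05 by limma. At an unadjusted p under 0.05 there were 6 of the 42, each higher, where 9.26% of all tested probe sets were called higher. In this list the smallest p were those of the elongation factors Eef1g (0.32 ± 0.068, limma adjusted p = 0.0584) and Eef1a1 (0.17 ± 0.040, 0.0746). The brighter Eef1a1 probe set gave 0.17 ± 0.091 (0.368). Of 15 probe sets of 9 genes that make ribosomes, 7 gave positive and 8 negative differences, and the median was -0.0053, and none passed by limma. At an unadjusted p under 0.05 there were 4 higher and 1 lower, where 16.2% of all tested probe sets were at that level in either direction. The nucleolar protein Nolc1 gave 0.15 ± 0.039 (limma adjusted p = 0.0916) and the polymerase subunit Polr1d 0.14 ± 0.046 (0.170). The brighter Nolc1 probe set gave only 0.031 ± 0.035 (0.671), and the other Polr1d probe set 0.14 ± 0.052 (0.216).

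Among 11 probe sets of 7 genes around mTOR and the S6 kinases, 8 were higher and 3 lower (median 0.054), and none passed by limma. At an unadjusted p under 0.05 there were 2, a share near the 16.2% of all tested probe sets. Rheb, the small GTPase that activates mTOR, gave 0.32 ± 0.084 (limma adjusted p = 0.0934) and the kinase Akt1 -0.22 ± 0.066 (0.124). The other Akt1 probe set gave -0.094 ± 0.10 (0.665). Of 15 probe sets of 14 mitochondrial ribosomal proteins, which build a separate ribosome for mitochondrial transcripts, 12 gave positive and 3 negative differences, and the median was 0.037. None passed by limma, and 2 were higher at an unadjusted p under 0.05, where 9.26% of all tested probe sets were. These were Mrpl13 (0.33 ± 0.076, limma adjusted p = 0.0717) and Mrps6 (0.23 ± 0.076, 0.155). The members' median of 0.16 was above those of these 4 lists, but no test compared them.

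Marker genes of other cell types are given since these are bulk samples, in which more cells of a type and more message per cell cannot be told apart. Of 22 probe sets of 9 fibroblast markers, 17 were higher and 5 lower (median 0.13), and their summed intensity was 80053 to 113856 in exercised and 67184 to 86531 in sedentary samples. Of 8 probe sets of 5 smooth muscle markers, 7 were higher (median 0.11, sums of 21966 to 27589 and 20624 to 22634). Most of these sums came from desmin (Des), with means of 16279 in exercised and 14014 in sedentary samples. Heart muscle cells make desmin too, so the sums are not specific to smooth muscle. Of 14 probe sets of 8 macrophage and leukocyte markers, 9 were higher and 5 lower (median 0.046, sums of 30642 to 36776 and 27869 to 32019). Lyz2, the lysozyme of macrophages, passed the test (1.0 ± 0.18, limma adjusted p = 0.0404), with means of 5421 in exercised and 2401 in sedentary samples. The markers did not move together, since C1qb gave 0.37 and 0.31 but Csf1r -0.17 and Ptprc -0.14 and -0.012. The 5 erythroid probe sets were lower (median -0.11, sums of 15484 to 40238 and 39224 to 44465), and 3 of 4 endothelial ones were lower (median -0.071, sums of 4355 to 4771 and 4478 to 5794). Of 16 cardiomyocyte probe sets 12 were higher (median 0.024). Of 12 atrial probe sets, the 9 of the natriuretic peptide Nppa and the enzyme Pam gave positive differences, and the 3 of the atrial myosin light chains Myl4 and Myl7 gave negative ones (median of all 12 0.20, sums of 58720 to 128124 and 54026 to 134279). Sedentary 16 stood apart on the light chains, with Myl7 at 8652 on a probe set where the other sedentary samples lay between 1136 and 1923 and the exercised samples between 1323 and 1499. Without sedentary 16 the ribosomal protein median was 0.17, with 51 of 55 higher and 29 at an unadjusted p under 0.05. Of all tested probe sets 14.4% were at that level in either direction. No marker was at 0. The part of these cell types in the ribosomal protein difference was not tested.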

How the data were processed

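Gene expression was measured on single-channel arrays in 6 exercised and 6 sedentary left ventricle samples, grouped by their titles. The values are intensity per probe set on a linear scale, as deposited by the authors; the labels do not state the scanner, the background correction or the scaling. The number of arrays limits the precision, and a change in total RNA per cell could not be seen after a common scaling. Gene names came from the platform annotation, and 55 of 56 member probe sets matched a RefSeq gene by Entrez ID, with no symbol changed. The probe set without a match is that of Rps9.

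Values were tested as log2(intensity + 363), the pseudocount being the 20th percentile of all values, over the 6555 probe sets with a 12-array mean above the 25th percentile (434). The fit was limma 3.58.1 in R 4.3.3 (lmFit, eBayes with trend, two-sided, Benjamini-Hochberg over all tested probe sets, threshold 0.05). The exact rank-sum test was run in R as well. The members and lists were chosen with earlier results of these data known. Named with values per sample were the 6 members of smallest p, the 3 of largest difference among the others, the 3 of lowest difference, and Rplp0 and Rps6. Other probe sets of the same genes were given beside them, and the remaining members by difference alone. Of other lists, the 2 genes of smallest p or those past the threshold were named. The fit was tested on simulated data. Alternatives covered the pseudocount, the filter, the scaling, the moderation, array weights, a rank-sum test and leaving out arrays. No sample number occurs in both groups, so samples were not paired. Promoter sequences are those of RefSeq, build GRCr8.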

Additional observations from a re-analysis of the deposited data

Results flagged for a closer look

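Among the 15 probe sets given by sample and the median over the members, 32 groups of 6 samples were examined for a single distant sample by Dixon's ratio at its 95% critical value, of which chance gives about 5%, and 3 were found. Sedentary 24 had an intensity of 3721.32 on the dimmer Rps3 probe set, against 6804 to 7946 on the other sedentary arrays. Sedentary 17 had 8385.21 on the Rps15 probe set with the suffix r, against 4109 to 5592, and 4727.45 on that with the suffix i, against 2074 to 2887.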

How the results depend on the processing

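The median difference of the members, 0.16, stayed between 0.094 and 0.20 under every alternative run, within the spread between arrays, and the number higher between 47 and 53 of 55 where all 55 were tested. On 1 probe set per gene it was 0.16, with 36 of 37 higher. Members past an adjusted p of 0.05 by limma numbered 0 in the main fit, 1 with only probe sets above the 50th percentile, 1 without the trend, 6 with array weights (Rpl23, Rpl27a, Rpl35, Rps16, Rps27l and Rps6, with a weight of 0.117 for sedentary 17), and 5 at a threshold of 0.10. With 1 array left out there were 0 to 1. This was Rps27l without exercised 1 and Rpl35 without sedentary 17. The 31 members at an unadjusted p under 0.05 became 19 after the shift to bright probe sets, and ran from 27 to 32 with 1 array left out. With 1 array left out, 12.8% to 19.0% of all tested probe sets were at that level. Members whose groups did not overlap numbered 5, and 1 under quantile normalization or the bright shift, and 3 under cyclic loess. They numbered 13 without sedentary 16 and 17, 8 without exercised 4 and 5, and 5 to 8 with 1 array left out, where a smaller group overlaps less readily. The share of all tested probe sets without overlap was not counted under these alternatives.

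The 21 probe sets past the threshold among all 6555 became 32 without a filter, 50 above the 50th percentile, 42 without trend, 160 with array weights, 144 at a threshold of 0.10, 5 without sedentary 16 and 17, 4 without exercised 4 and 5, 0 by the exact rank-sum test, and 3 to 37 with 1 array left out. The sign turned for Rplp0 under cyclic loess (-0.0022), the bright shift (-0.023) and without exercised 4 and 5 (-0.024). It turned for the Rps15 probe set with the suffix i with array weights (0.065), without sedentary 17 (0.083) and without sedentary 16 and 17 (0.10), and with 1 array left out that probe set ran from -0.13 to 0.083. Except where a left-out array or a smaller table shows it, the cause was not tested. No paired analysis was possible because the groups share no sample numbers.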
